A study of Arabidopsis thaliana with 2 samples.

Results

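The endoplasmic reticulum (ER) folding and unfolded protein response genes of Arabidopsis thaliana are described here across 1 library of estradiol-treated and 1 library of control leaf explants. The 40 genes were chosen by locus from their known function, out of 33602 loci in the count tables, and earlier results on the same ratios were known when they were chosen. All 40 had at least 10 counts in 1 or both libraries and so were among the 20274 measured genes. By role they comprise 3 lumenal Hsp70 genes, 6 genes of the lectin folding cycle, 12 of disulfide formation, 5 co-chaperone and lumenal Hsp90 genes, 5 of ER-associated degradation, 5 stress sensors or their transcription factors, and 4 survival or export effectors.

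Both libraries came from first-pair rosette leaves of plants in the Col-0 background at 12 days after sowing, and both carry pER8:3xFlag-NAC1. In the pER8 vector an estradiol-responsive promoter drives the inserted gene, here Flag-tagged NAC1, a NAC-domain transcription factor. Explants of the estradiol group were cultured on B5 medium with estradiol and its solvent DMSO, and explants of the control group on B5 medium with DMSO. The stated purpose was to find genes that NAC1 up-regulates. No library of estradiol-treated plants without the transgene was analysed here, so responses to estradiol itself and to NAC1 cannot be told apart. The sources used here do not give the time on the medium, the number of explants per library or the number of transgenic lines.

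With 1 library per group there is no replicate error and no significance test. Every ratio compares these libraries, with its exact 95% interval in parentheses, which covers counting error only. A gene is called higher where its whole interval lies above 2-fold and lower where it lies below 0.5-fold. Gene counts totalled 48350705 in the estradiol library and 39799127 in the control library. NAC1 itself had 28380 counts in the estradiol library and 466 in the control library, a ratio of 49.4-fold (45.1 to 54.3), which follows the treatment labels, although the locus overlaps other annotated genes and transgene reads cannot be told from native ones. Leaf identity was checked with 4 photosynthetic markers, all below the control after scaling, which summed to 7165 CPM in the estradiol library and 10116 CPM in the control library (CPM, library-scaled counts per 1e6), none of them called. Among markers of other tissues, 6 of the 8 had at most 4 counts in either library, the other two being the pollen gene AGP6 (56 counts with estradiol against 41 in the control) and the root gene WOX5 (4 counts with estradiol against 13 in the control). Fewer cells of a type and less RNA per cell cannot be told apart in such bulk samples, and the part of the lower leaf markers in the ratios below was not tested.

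As background, secreted and membrane proteins fold in the ER with the Hsp70 chaperone BiP, the lectins calnexin and calreticulin, and protein disulfide isomerases. When unfolded proteins accumulate, the membrane kinase and ribonuclease IRE1 splices the mRNA of the transcription factor bZIP60, and bZIP28 and bZIP17 are cut free of the membrane by Golgi proteases. These factors then activate chaperone genes through short promoter elements named ERSE and UPRE, and proteins that do not fold are sent back to the cytosol for degradation (ERAD). In plants the same chaperones also serve the secretory load of immune responses.

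Among the chaperone and folding enzyme genes, BIP3, ERDJ3A and PDIL2-2 had the highest ratios of estradiol over control, and TIN1 was the highest outside them. Of the 40 genes, 15 were called higher and 0 lower, against 5.38% and 4.64% of all measured genes called higher and lower. By role, the calls were 2 of 3 lumenal Hsp70 genes, 2 of 6 lectin cycle genes, 5 of 12 disulfide genes, 5 of 5 co-chaperone and Hsp90 genes, 0 of 5 ERAD genes, 0 of 5 sensor genes and 1 of 4 effectors. With so few genes per role, 0 of 5 is also near the background share, and whether roles differ was not tested. With an assumed coefficient of variation of 0.2 between libraries 4 of the 15, BIP3, PDIL2-2, ERDJ3A and TIN1, were called. Under that setting 3.16% of all measured genes were called higher. The log2 ratios of the 40 genes had a median of 0.86, with a range of -0.15 to 6.53, beside a median of 0.01 over all measured genes. All but BZIP60 were above a log2 ratio of 0, and 37 had an interval wholly above 1, as did 36.7% of all measured genes. Together the 40 genes took 0.690% of the estradiol gene counts and 0.345% of the control gene counts. Their choice was made with such ratios known, so these counts are a description and not a test.

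**Figure D1:**
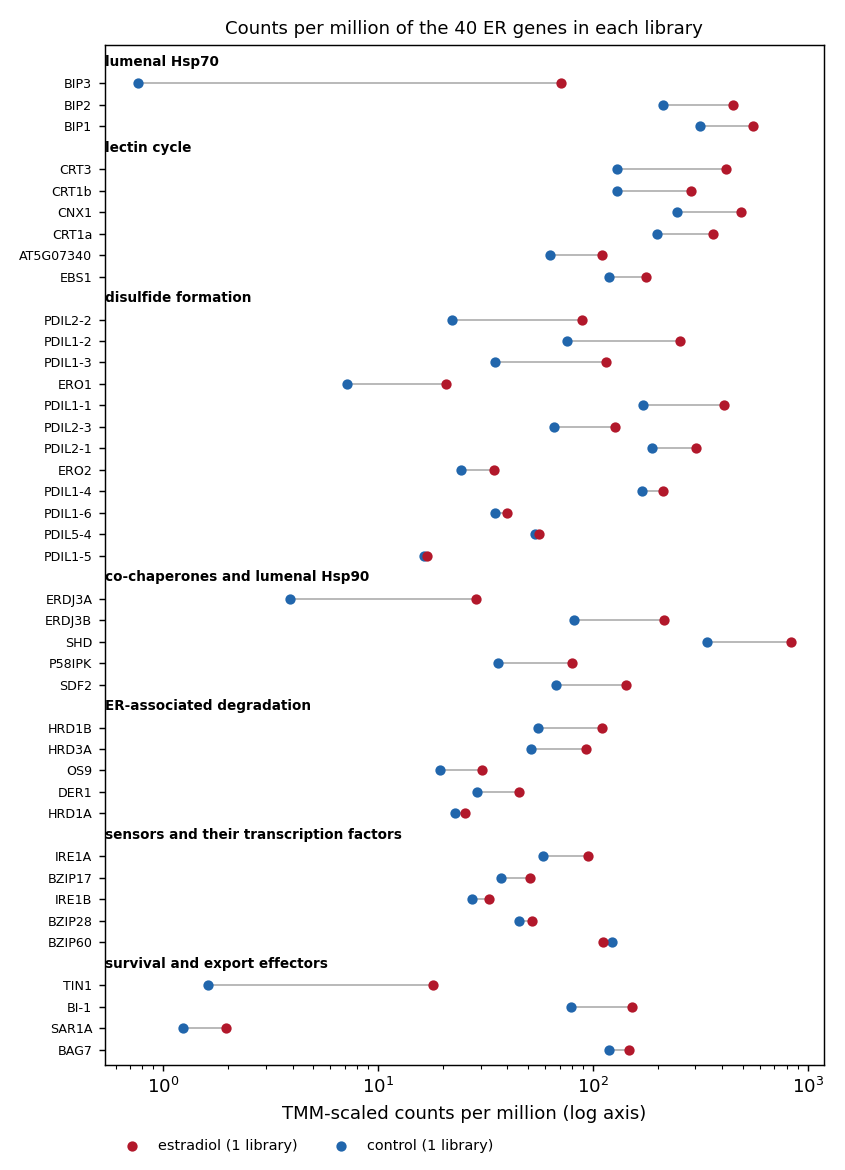
TMM-scaled CPM (log axis) of each of the 40 genes, grouped by role, with 1 red point for the estradiol library and 1 blue point for the control library. The red point lies right of the blue point for 39 genes, the exception being BZIP60, and the widest gap is that of BIP3.

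The lumenal Hsp70 genes encode BiP, which binds unfolded chains and holds bZIP28 in the ER until stress releases it. BIP3 (AT1G09080), the strictly stress-inducible copy, had 3471 counts in the estradiol library and 30 in the control library, a ratio of 93.9-fold (65.6 to 139). This was the highest ratio of the 40, and 99.7% of all measured genes had a lower log2 ratio. BIP2 (AT5G42020) had 21814 counts in the estradiol library and 8395 in the control library and was called higher at 2.11-fold (2.06 to 2.16). BIP1 (AT5G28540) had 26993 counts in the estradiol library and 12501 in the control library and was not called, at 1.75-fold (1.72 to 1.79). Their transcripts are 97.2% identical over 2122 aligned bases, and the sources used here do not give how reads matching both were handled. Summed, BIP1 and BIP2 had 48807 counts in the estradiol library and 20896 in the control library, a ratio of 1.90-fold (1.86 to 1.93), which is below the call. No similar copy of BIP3 was found at 90% identity over 100 bases.

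On a per-length scale (CPM per kilobase of transcript, CPM per kb) BIP3 was at 33.7 CPM per kb in the estradiol library and 0.359 in the control library. BIP1 was at 195 CPM per kb in the estradiol library and 112 in the control library. BIP3 thus made up 8.41% in the estradiol library and 0.186% in the control library of the summed BIP level, and the constitutive copies supplied most BiP mRNA in both.

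Promoter windows of 300 bases, from 250 before to 50 after the annotated gene start, were read from RefSeq's TAIR10.1 genome and annotation. Those of BIP3 and BIP2 are shown, which are among the 15 members whose windows hold ERSE or UPRE letters. Capitals mark matches to ERSE (CCAATNNNNNNNNNNCACG), ERSE-II (ATTGGNCCACG) and the UPRE core (TGACGTGG) on either strand, where N is any base. The UPRE core overlaps ERSE-II in BIP2.
BIP3, TAIR10.1 chr1:2931801-2932100, minus strand: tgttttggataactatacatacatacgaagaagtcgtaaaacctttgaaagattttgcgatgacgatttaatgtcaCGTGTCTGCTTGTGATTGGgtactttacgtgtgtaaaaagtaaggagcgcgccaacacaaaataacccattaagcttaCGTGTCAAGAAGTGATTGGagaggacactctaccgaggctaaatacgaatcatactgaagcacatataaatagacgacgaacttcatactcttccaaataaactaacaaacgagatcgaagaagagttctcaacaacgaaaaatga
BIP2, TAIR10.1 chr5:16810644-16810943, minus strand: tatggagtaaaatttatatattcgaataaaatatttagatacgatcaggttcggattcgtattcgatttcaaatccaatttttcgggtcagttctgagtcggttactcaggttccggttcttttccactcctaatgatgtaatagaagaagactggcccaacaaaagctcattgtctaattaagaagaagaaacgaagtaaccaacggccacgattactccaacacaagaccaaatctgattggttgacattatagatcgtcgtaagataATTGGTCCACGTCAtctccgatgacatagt
BIP3 holds an ERSE at each of 2 positions, first bases -174 and -96 counted from the start, both on the opposite strand. A repeated ERSE is also found at lower ratios. PDIL1-1, at 2.38-fold (2.32 to 2.45), holds it at -187 and 12, and P58IPK, at 2.21-fold (2.08 to 2.35), at -119 and -59. In BIP2 the ERSE-II begins at base 21 after the annotated start and the UPRE core at base 27. The BIP1 window holds none of these letters, which says nothing about other positions or about factor binding.

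Genes of the lectin cycle bind the glucose tag on newly made glycoproteins until they fold. CRT3 (AT1G08450), a plant-specific calreticulin needed for pattern receptor folding, had 20371 counts in the estradiol library and 5111 in the control library, a ratio of 3.23-fold (3.14 to 3.34). CRT1b (AT1G09210), a general calreticulin, had 13864 counts in the estradiol library and 5118 in the control library and was called higher at 2.2-fold (2.13 to 2.27). Its close relative CRT1a (AT1G56340) had 17648 counts in the estradiol library and 7851 in the control library and was not called, at 1.82-fold (1.78 to 1.87), and part of it resembles another locus (90.5% identity over 412 bases). CRT3 thus took 44.3% in the estradiol library and 32.5% in the control library of the calreticulin CPM per kb, and CRT1a 33.5% in the estradiol library and 43.6% in the control library.

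Calnexin is the membrane-bound lectin. CNX1 (AT5G61790) had 23841 counts in the estradiol library and 9773 in the control library, a ratio of 1.98-fold (1.93 to 2.03) that spans the 2-fold threshold. AT5G07340, annotated as a calreticulin family protein and listed with the calnexins, had 5356 counts in the estradiol library and 2484 in the control library, a ratio of 1.75-fold (1.67 to 1.84). EBS1 (AT1G71220), the glucosyltransferase that re-tags misfolded glycoproteins for another round, had 8641 counts in the estradiol library and 4697 in the control library and the lowest ratio of the cycle, 1.49-fold (1.44 to 1.55). All 6 lectin cycle genes lay above the scaled control level, 2 were called higher, and their median log2 ratio was 0.93.

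Genes of disulfide formation spread widely, with 5 of 12 genes called higher and log2 ratios of 0.05 to 2.01. PDIL2-2 (AT1G04980) had 4317 counts in the estradiol library and 870 in the control library, a ratio of 4.03-fold (3.74 to 4.34). PDIL1-2 (AT1G77510) had 12350 counts in the estradiol library and 3004 in the control library, a ratio of 3.34-fold (3.21 to 3.47), and a short stretch of it resembles another locus (93.2% identity over 147 bases). PDIL1-3 (AT3G54960) had 5595 counts in the estradiol library and 1382 in the control library, a ratio of 3.29-fold (3.10 to 3.49). All of these encode isomerases that form and reshuffle disulfides in the lumen. PDIL1-1 (AT1G21750), the most abundant isomerase mRNA per kilobase in the estradiol library, had 19794 counts in the estradiol library and 6737 in the control library and a ratio of 2.38-fold (2.32 to 2.45). ERO1 (AT1G72280), an oxidase that recharges the isomerases, had 1011 counts in the estradiol library and 284 in the control library, a ratio of 2.89-fold (2.53 to 3.31), while its paralogue ERO2 (AT2G38960) had 1682 counts in the estradiol library and 959 in the control library, a ratio of 1.42-fold (1.31 to 1.54).

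The remaining isomerase genes were not called. PDIL2-3 (AT2G32920) had 6155 counts with estradiol against 2599 in the control, a ratio of 1.92-fold (1.84 to 2.01), and PDIL2-1 (AT2G47470) had 14772 counts with estradiol against 7433 in the control, a ratio of 1.61-fold (1.57 to 1.66). PDIL1-4 (AT5G60640) had 10282 counts with estradiol against 6652 in the control, a ratio of 1.25-fold (1.22 to 1.29), and PDIL1-6 (AT3G16110) had 1948 counts with estradiol against 1388 in the control, a ratio of 1.14-fold (1.06 to 1.22). Of these, PDIL2-3 alone has an interval that reaches 2. PDIL5-4 (AT4G27080), a member of a smaller and structurally distinct subfamily, had 2738 counts with estradiol against 2118 in the control and 1.05-fold (0.991 to 1.11), and PDIL1-5 (AT1G52260) had 825 counts with estradiol against 646 in the control and 1.04-fold (0.934 to 1.15). These intervals include 1 for PDIL5-4 and PDIL1-5 alone among the 12. PDIL1-6 (with RABG3c, 1455 counts with estradiol and 1298 in the control) and PDIL2-1 (with AT2G47480, 19 counts with estradiol and 21 in the control) each overlap a gene on the opposite strand, and with no strand setting given their reads cannot be told apart. Within the PDIL1 subfamily, PDIL1-2 took 26% in the estradiol library and 16.5% in the control library of the CPM per kb and PDIL1-4 18.4% in the estradiol library and 31.1% in the control library. In the PDIL2 subfamily PDIL2-2 took 17.3% in the estradiol library and 8.06% in the control library.

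**Figure D2:**
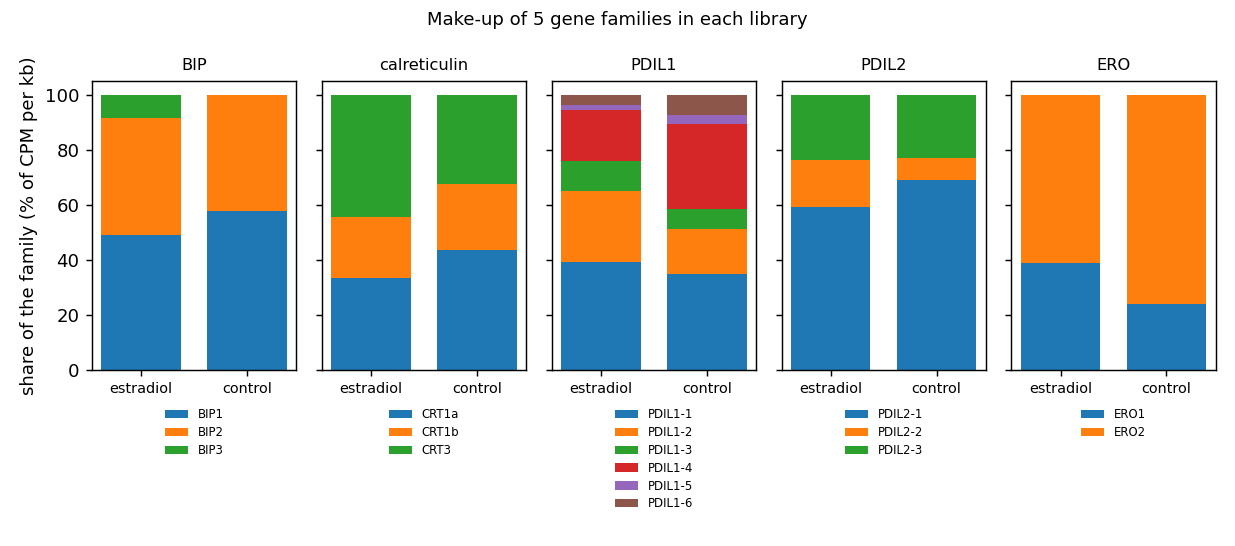
Stacked bars give each gene's share (% of CPM per kb) of its BIP, calreticulin, PDIL1, PDIL2 or ERO family, estradiol left of control, with 1 library per bar. BIP3 (8.41% with estradiol, 0.186% in the control), CRT3, PDIL1-2, PDIL2-2 and ERO1 take larger shares in the estradiol library, and BIP1, CRT1a, PDIL1-4, PDIL2-1 and ERO2 smaller ones.

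Every gene among the 5 co-chaperones and lumenal Hsp90 was called higher, with a median log2 ratio of 1.3. Under the assumed variation 1 of the 5, ERDJ3A (AT3G08970), was called, against 3.16% of all measured genes. ERDJ3A, a J-domain partner of BiP known from heat-tolerant pollen growth, had 1385 counts in the estradiol library and 154 in the control library, a ratio of 7.30-fold (6.17 to 8.68). The locus overlaps AT3G08960 on the opposite strand, which had 2197 counts in the estradiol library and 1782 in the control library. ERDJ3B (AT3G62600) and SDF2 (AT2G25110) act in a complex with BiP on pattern receptors. The first had 10393 counts in the estradiol library and 3219 in the control library, a ratio of 2.62-fold (2.52 to 2.73). SDF2 had 6922 counts in the estradiol library and 2666 in the control library, a ratio of 2.11-fold (2.01 to 2.2). SHD (AT4G24190), the lumenal Hsp90, had 40636 counts in the estradiol library and 13414 in the control library, the highest counts of the 40 genes in both, and a ratio of 2.46-fold (2.41 to 2.51). P58IPK (AT5G03160), a further J-domain co-chaperone, had 3888 counts in the estradiol library and 1430 in the control library, a ratio of 2.21-fold (2.08 to 2.35), and overlaps FLA11, which had 161 counts in the estradiol library and 185 in the control library.

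**Figure D3:**
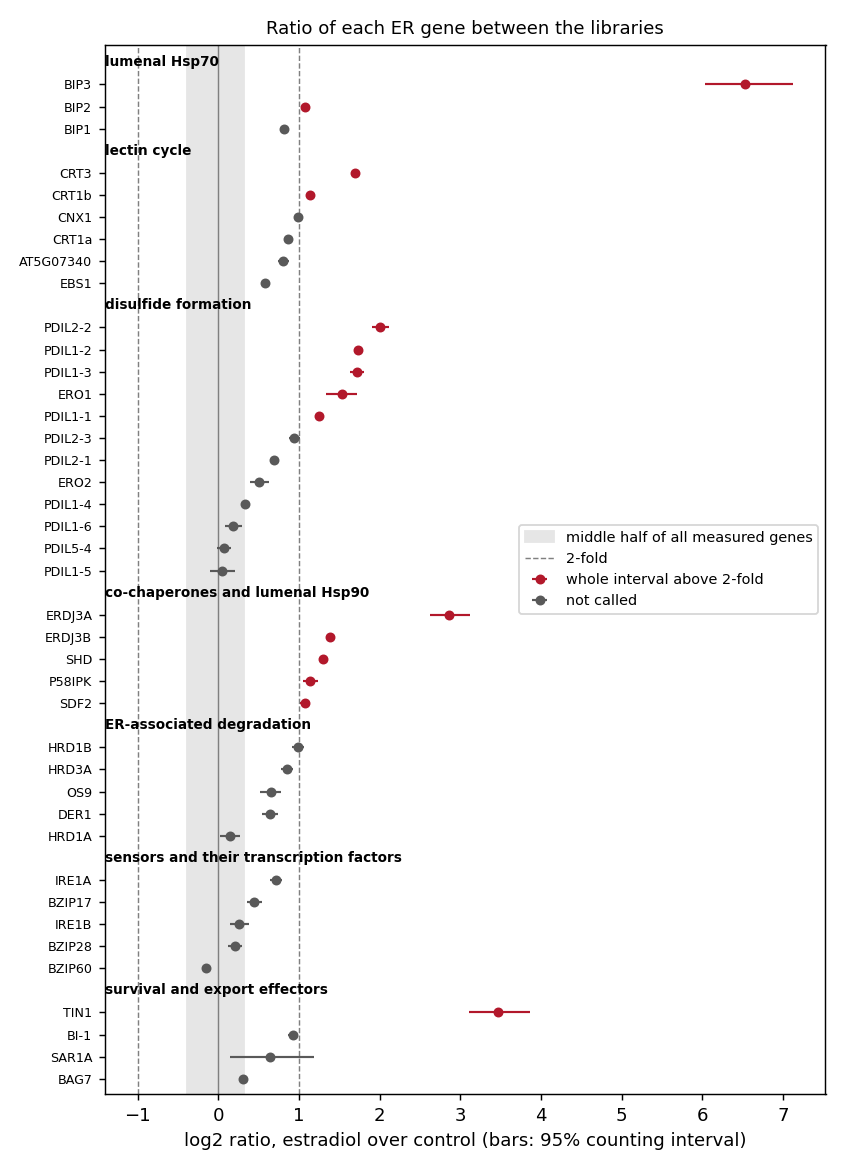
Log2 ratio of estradiol over control for the 40 genes by role, with 95% counting intervals as bars, red where the whole interval is above 2-fold. Grey shading marks the middle 50% of all measured genes, and all 5 co-chaperone genes lie to the right of the 2-fold line while the 5 sensor genes lie to its left.

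None of the 5 ERAD genes was called, and their median log2 ratio was 0.65. HRD1B (AT1G65040), a ubiquitin ligase of the ER membrane, had 5380 counts in the estradiol library and 2205 in the control library, a ratio of 1.98-fold (1.88 to 2.08). Its paralogue HRD1A (AT3G16090) had 1231 counts in the estradiol library and 904 in the control library, a ratio of 1.11-fold (1.01 to 1.21). HRD3A (AT1G18260), which hands substrates to the HRD1 ligases, had 4510 counts in the estradiol library and 2035 in the control library, a ratio of 1.80-fold (1.71 to 1.90). OS9 (AT5G35080), a lectin that recognises trimmed glycans on failed proteins, had 1476 counts with estradiol against 764 in the control and 1.57-fold (1.44 to 1.71), and DER1 (AT4G29330) of the derlin channel proteins had 2203 counts with estradiol against 1146 in the control and 1.56-fold (1.45 to 1.68). All 5 intervals lay above 1 and all but that of HRD1B below 2, and at a 1.5-fold call HRD1B and HRD3A were called higher.

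The sensors and their transcription factors were the role nearest to the control, with 0 of 5 called and a median log2 ratio of 0.26. IRE1A (AT2G17520) had 4644 counts in the estradiol library and 2302 in the control library, a ratio of 1.64-fold (1.56 to 1.72), and IRE1B (AT5G24360) had 1591 counts in the estradiol library and 1077 in the control library, a ratio of 1.2-fold (1.11 to 1.3). BZIP60 (AT1G42990), the factor whose mRNA IRE1 splices, had 5408 counts in the estradiol library and 4861 in the control library, a ratio of 0.903 (0.868 to 0.939). It was the single gene of the 40 below the control after scaling. BZIP28 (AT3G10800) had 2540 counts in the estradiol library and 1792 in the control library, a ratio of 1.15-fold (1.08 to 1.22). BZIP17 (AT2G40950), known also from salt stress, had 2468 counts in the estradiol library and 1469 in the control library, a ratio of 1.36-fold (1.28 to 1.46). Gene counts do not separate spliced from unspliced BZIP60 mRNA and do not show protein cleavage, so activity of the sensors was not measured.

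Effector genes ranged widely. TIN1 (AT5G64510), named for its induction by the glycosylation inhibitor tunicamycin, had 876 counts in the estradiol library and 64 in the control library, a ratio of 11.1-fold (8.61 to 14.6), second to BIP3 among the 40. BI-1 (AT5G47120), the cell death suppressor BAX inhibitor 1 of the ER membrane, had 7368 counts in the estradiol library and 3140 in the control library and was not called, at 1.90-fold (1.83 to 1.99). BAG7 (AT5G62390), an ER-resident co-chaperone of the BAG family, had 7177 counts with estradiol against 4692 in the control and 1.24-fold (1.2 to 1.29), and overlaps NAC101 on the opposite strand. SAR1A (AT1G09180), a GTPase of vesicle budding from the ER, had 95 counts in the estradiol library and 49 in the control library, a ratio of 1.57-fold (1.10 to 2.27) whose interval spans 2. It had the fewest counts of the 40 in the estradiol library, while BIP3 had the fewest in the control library, and it made up 0.976% in the estradiol library and 0.775% in the control library of the CPM per kb of the 4 SAR1 genes.

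The TIN1 promoter window is shown because it holds the UPRE core at each of 2 positions, in capitals, with first bases -133 and -69.
TIN1, TAIR10.1 chr5:25784154-25784453, plus strand: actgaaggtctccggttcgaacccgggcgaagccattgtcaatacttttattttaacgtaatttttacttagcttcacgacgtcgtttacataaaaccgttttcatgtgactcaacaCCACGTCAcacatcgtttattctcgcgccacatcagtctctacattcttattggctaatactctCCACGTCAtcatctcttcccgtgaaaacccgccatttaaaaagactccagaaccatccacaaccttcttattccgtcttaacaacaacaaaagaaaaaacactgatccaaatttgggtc
The ERDJ3A window, by contrast, holds none of the ERSE, ERSE-II or UPRE core letters. A repeated UPRE core is not particular to TIN1. CRT1a, not called at 1.82-fold (1.78 to 1.87), holds it at first bases -98 and -16, along with an ERSE.

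Close to the call, the members just inside it were SDF2, BIP2 and P58IPK, with lower interval limits of 2.01, 2.06 and 2.08. Just outside were CNX1, HRD1B, PDIL2-3 and BI-1, with lower limits of 1.93, 1.88, 1.84 and 1.83. With the call moved to 1.5-fold, 25 of the 40 were called higher, against 8.92% of all measured genes, and 0 lower, against 9.91%. The genes added were BIP1, CNX1, AT5G07340, CRT1a, PDIL2-1, PDIL2-3, HRD1B, HRD3A, IRE1A and BI-1.

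Other genes of the ER were listed by function, also with earlier results of these data known. Across these, 2 of the 59 measured genes were called higher and 0 lower, which is no more than the 5.38% and 4.64% of all measured genes. Smaller shifts were mostly upward. By list, 60% (stress proteases and NAC factors) to 100% (translocon) had a log2 ratio above 0, against 50.6% of all measured genes. For intervals wholly above 1 the same lists had 40% and 100%, against 36.7%. Translocon genes, whose products pass new chains into the ER, had a median log2 ratio of 0.51 over 11 measured members, all above 0. AT3G60540, annotated as a Sec61-beta subunit, was called higher with 912 counts in the estradiol library and 82 in the control library, a ratio of 9.03-fold (7.19 to 11.5). The other beta subunit genes, SEC61B-1 and AT5G60460, had ratios of 1.38-fold (1.32 to 1.43) and 1.42-fold (1.29 to 1.57), and the lowest translocon ratio was that of the translocation protein gene AT3G20920, with 2793 counts with estradiol against 1807 in the control and 1.25-fold (1.18 to 1.33). Among COPII vesicle and retrieval genes SEC31A, a vesicle coat gene, was called higher from few reads, with 46 counts in the estradiol library and 3 in the control library, a ratio of 12.4-fold (4.0 to 62.5). Its paralogue SEC31B had 9503 counts with estradiol against 6346 in the control and 1.22-fold (1.18 to 1.25), the retrieval receptor gene ERD2B had the lowest ratio of that list with 2408 counts with estradiol against 1776 in the control and 1.10-fold (1.03 to 1.17), and the median over 13 was 0.28.

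The other ER lists held no call. Oligosaccharyltransferase genes, which attach glycans, had a median log2 ratio of 0.39 over 9, with OST3/6 highest (5084 counts with estradiol against 2672 in the control, 1.54-fold (1.47 to 1.62)) and DAD2 lowest (881 counts with estradiol against 657 in the control, 1.09-fold (0.982 to 1.21)). Further folding enzymes had a median of 0.32 over 8, with AT4G16660, annotated as an Hsp70 family protein, highest with 13129 counts with estradiol against 5166 in the control and 2.06-fold (2.00 to 2.13), its lower limit just under 2. PDIL5-3 was lowest with 926 counts with estradiol against 868 in the control and 0.866 (0.788 to 0.951). AT4G16660 was called higher under both other scalings, at log2 ratios of 1.05 and 1.06. Further ERAD genes had a median of 0.18 over 13. Highest was the peptide N-glycanase gene PNG1 with 3632 counts with estradiol against 1483 in the control and 1.99-fold (1.87 to 2.11), and lowest was RMA1, a membrane-anchored ubiquitin ligase gene, with 545 counts with estradiol against 809 in the control and 0.547 (0.490 to 0.610). Stress proteases and ER-stress NAC factors had a median of 0.08 over 5. S1P, a protease that releases bZIP28, had 1983 counts with estradiol against 1236 in the control and 1.3-fold (1.21 to 1.40), and the membrane-tethered factor gene NAC062 had 3890 counts with estradiol against 5611 in the control and 0.563 (0.540 to 0.586). PDIL5-3, DAD2 and AT3G20920 overlap genes on the opposite strand. NAC103, a known target of bZIP60, had 61 counts with estradiol against 59 in the control and 0.839 (0.577 to 1.22).

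Cytosolic chaperone genes gave 2 calls higher among 14 (14.3%, against 5.38% of all measured genes) and 0 lower, with a median log2 ratio of 0.61. HSP90.1 was called higher with 3877 counts with estradiol against 1016 in the control and 3.10-fold (2.89 to 3.32), and HOP3, an Hsp90 co-chaperone, with 443 counts with estradiol against 140 in the control and 2.57-fold (2.12 to 3.13). Neither was called under the assumed variation. HOP3 overlaps PME1 on the opposite strand, which had 2745 counts in the estradiol library and 1928 in the control library. The abundant constitutive gene HSC70-1 had 71939 counts with estradiol against 56510 in the control and 1.03-fold (1.02 to 1.04). Lowest was HSP90.3, which has close copies, with 15461 counts with estradiol against 13470 in the control and 0.931 (0.910 to 0.953). Of the 14, 12 had a log2 ratio above 0 (85.7%, against 50.6% of all measured genes) and 2 below. Summed over their list, cytosolic chaperones had 3092 CPM in the estradiol library and 2839 CPM in the control library, a ratio of 1.09. That sum is weighted to abundant genes, as HSC70-1 alone had 1477 CPM in the estradiol library and 1430 CPM in the control library. All 40 ER genes had 6852 CPM in the estradiol library and 3477 CPM in the control library, a ratio of 1.97, and by role this ratio of sums ran between 1.17 for the sensors and 2.46 for the co-chaperones and Hsp90.

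**Figure D4:**
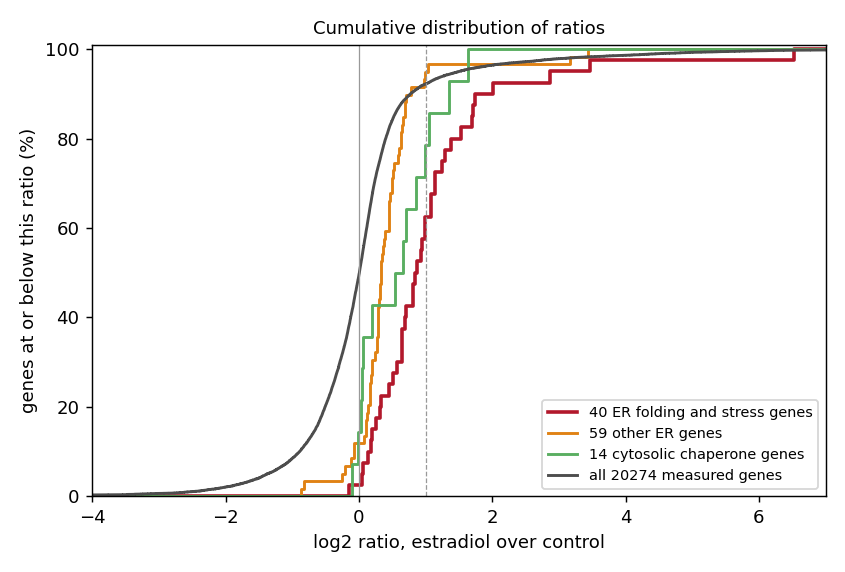
Cumulative share of genes (%) at or below each log2 ratio of estradiol over control, for the 40 ER genes, 59 other ER genes, 14 cytosolic chaperone genes and all 20274 measured genes. The curve of the 40 genes lies furthest right at its middle, with a median of 0.86, and that of all measured genes crosses 50% at 0.01.

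Promoter elements were then counted over all windows. ERSE letters were found in 13 of 40 windows (32.5%), in 5 of 60 windows of the other ER genes (8.33%) and in 233 of 27443 protein-coding windows (0.849%). The UPRE core was in 7 of 40 (17.5%), 5 of 60 (8.33%) and 415 of 27443 (1.51%). ERSE-II was in BIP2 alone of the 40 (2.50%) and in 19 of all windows (0.0692%). The G-box, CACGTG, was in 14 of 40 (35.0%), 9 of 60 (15.0%) and 2107 of all windows (7.68%). It can overlap the other elements. The shares of the 40 genes come from reference sequence and from a choice by known function, and do not describe the libraries.

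Some ERSE matches are shown to compare spacers between genes of high and low ratio, each on the strand of the element with its fixed letters in capitals.
BIP3 first match: CCAATcacaagcagaCACG
BIP3 second match: CCAATcacttcttgaCACG
PDIL2-2: CCAATgatattgtcaCACG
SHD: CCAATacaaaactacCACG
CNX1: CCAATcataacaggcCACG
EBS1: CCAATcagtggcgccCACG
OS9: CCAATtaaaattcgaCACG
Among the 15 genes called higher 8 (53.3%) had ERSE, ERSE-II or the UPRE core in the window, and among the 25 not called 7 (28.0%). The same share was 9 of 60 other ER genes (15.0%) and 632 of 27443 protein-coding windows (2.30%). Whether called and uncalled members differ in it was not tested. EBS1 and OS9, at 1.49-fold (1.44 to 1.55) and 1.57-fold (1.44 to 1.71), hold an ERSE, whereas CRT3 and PDIL1-3, at 3.23-fold (3.14 to 3.34) and 3.29-fold (3.10 to 3.49), hold none of the 3 elements. Both ERSE matches of AT3G60540 lie within 100 bases of its start, and the SEC31A window has none. These matches are descriptions of letters and not of binding sites.

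**Figure D5:**
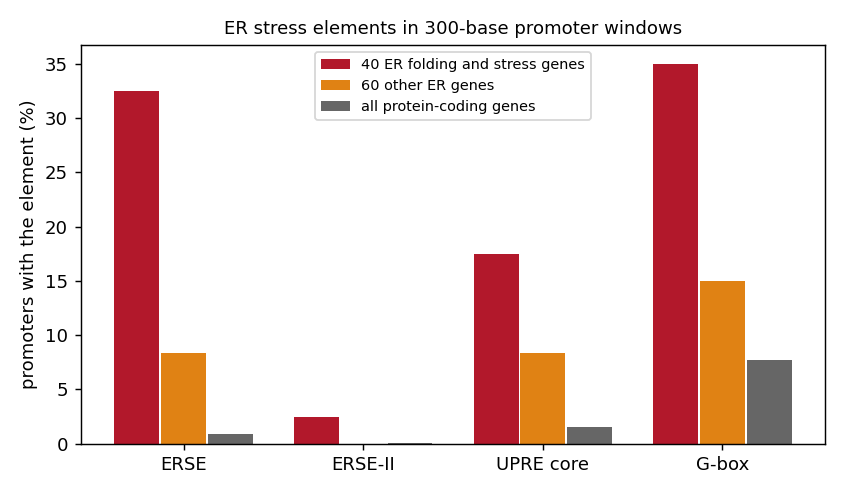
Share of 300-base promoter windows (%) that hold ERSE, ERSE-II, the UPRE core or the G-box, for the 40 ER genes, 60 other ER genes and all protein-coding genes. The 40 genes have the tallest bar for each element, at 32.5% for ERSE and 35.0% for the G-box.

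Over the 40 genes, which share both libraries, Spearman's rho between the log2 ratio and the mean log2 CPM per kb was 0.139, beside 0.0764 over 20251 measured genes, and between the log2 ratio and transcript length -0.129. The genes with the 3 highest ratios, BIP3, TIN1 and ERDJ3A, were among the 4 lowest in the control library, at 0.359, 0.955 and 1.84 CPM per kb, together with SAR1A at 1.68, and the control level is also the denominator of the ratio.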

How the data were processed

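RNA-seq of total RNA gave 1 count table per library. The authors deposited read counts per locus, and FastQC, HTSeq, DESeq and the build TAIR10 are named per the submitters' processing notes. The sources used here do not give the aligner, strand setting, handling of multiply mapped reads or extraction. Library sizes left out the 5 summary lines. Of gene counts and summary lines together, ambiguous reads made up 1.91% in the estradiol library and 2.05% in the control library. Reads outside features made up 0.693% in the estradiol library and 0.742% in the control library. All 279 organelle loci had 0 counts.

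Counts were scaled with TMM factors of edgeR 4.0.16 (R 4.3.3), 1.007 for estradiol and 0.993 for control. Genes needed 10 counts in either library. Ratios have exact conditional (Clopper-Pearson) 95% intervals from SciPy 1.17.1, and log2 ratios use a prior count of 0.5. Intervals cover counting error only, and no molecular identifiers are described for these reads. A count of 0 allows up to 3 counts, which is 0.0616 CPM in the estradiol library and 0.0759 CPM in the control library. The calling step was tested on counts simulated with counting error only, so that test does not cover variation between libraries. Groups follow the treatment labels. The 40 genes and all other lists were chosen with earlier results of these data known. All members are named, and from the other lists the called genes and the highest and lowest. SEC61B-1, AT5G60460, SEC31B, NAC103 and HSC70-1 were added after their values were seen.

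Alternatives were DESeq2 1.42.0 size factors, total counts, other count minimums, other folds, an assumed variation between libraries, and summed BIP1 and BIP2. Symbols, transcript lengths, overlaps and promoters came from RefSeq's TAIR10.1, in which all 40 members were found by locus. The tables hold no coordinates, so those printed are of TAIR10.1. Similar copies were searched with BLAST+ 2.17.0 at 90% identity over 100 bases.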

Additional observations from a re-analysis of the deposited data

How the results depend on the processing

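No paired analysis was possible because each group has 1 library, and for the same reason no replicate could be left out. The 15 members called higher were the same genes with DESeq2 size factors, with total counts, with no count minimum and with a minimum of 50 counts, and no member was called lower under any alternative run. At 1.5-fold 25 members were called higher, at 4-fold 3 (BIP3, ERDJ3A and TIN1), and with an assumed coefficient of variation of 0.2 between libraries 4 (those and PDIL2-2). Over all measured genes the calls were 1809 higher (8.92%) and 2009 lower (9.91%) at 1.5-fold. At 4-fold they were 468 (2.31%) and 161 (0.794%), and with the assumed variation 641 (3.16%) and 367 (1.81%). Among the 5 co-chaperone and Hsp90 genes 1, ERDJ3A, was called at 4-fold and with the assumed variation. The other scalings moved the median of all genes by 0.0049 and 0.0205 on the log2 scale. SEC31A was not measured at the minimum of 50 counts. No member's log2 ratio changed sign. Depth limits SAR1A, SEC31A and NAC103, whose intervals are wide. The spread between plants is unknown, and with the assumed variation 11 of the 15 calls were lost, so the ratios describe these libraries.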

Other observations

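Outside the listed genes, calls and small shifts did not point the same way for promoter windows with ERSE or ERSE-II. For windows with the UPRE core both leaned lower, and neither difference was tested. Of 206 measured genes with ERSE or ERSE-II and outside the lists, 7 (3.40%) were called higher and 8 (3.88%) lower, with a median log2 ratio of 0.07 and 44.2% of intervals wholly above 1. Of 360 measured genes with the UPRE core, 7 (1.94%) were called higher and 19 (5.28%) lower, with a median of -0.04 and 35.0% of intervals wholly above 1. Of 18968 measured genes with none of the 3 elements, 1030 (5.43%) were called higher and 900 (4.75%) lower, with a median of 0.0048 and 36.8% of intervals wholly above 1. Those of them with a G-box numbered 1548, of which 84 (5.43%) were called higher and 85 (5.49%) lower. Their median of -0.05 and 34.6% of intervals wholly above 1 were near those of the UPRE core set.

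The 7 genes with ERSE or ERSE-II called higher outside the lists included WRKY58, a WRKY transcription factor gene. WRKY58 had 280 counts in the estradiol library and 13 in the control library, a ratio of 17.5-fold (10.06 to 33.2). HAI3, a protein phosphatase gene of the abscisic acid response, had 126 counts in the estradiol library and 9 in the control library, a ratio of 11.4-fold (5.80 to 25.4). Others of the 7 rest on few reads. RLP28 had 51 counts in the estradiol library and 1 in the control library, a ratio of 41.4-fold (7.10 to 1666). AT2G03040 had 14 counts in the estradiol library and 0 in the control library. The 8 called lower included SHN3, with 53 counts in the estradiol library and 209 in the control library, a ratio of 0.206 (0.149 to 0.279). Also among them, AT5G17460 had 467 counts in the estradiol library and 1413 in the control library, a ratio of 0.268 (0.241 to 0.298). All of these genes were named after their values were seen.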
